A study of Mus musculus with 6 samples.

Results

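The NRF2 antioxidant response was followed through 10 genes: the transcription factor Nfe2l2 (NRF2), its inhibitor Keap1, and the enzyme and transporter genes Nqo1, Hmox1, Gclc, Gclm, Srxn1, Txnrd1, Slc7a11 and Gsr. They were found by symbol in the deposited table, each in 1 row, out of 24421 genes, and all 10 were among the 12435 genes that passed the filter on low values. The 6 libraries were made from polyadenylated RNA of E14 mouse embryonic stem cells, 3 wild type and 3 with the genotype Pml-/-. Both groups grew in the same medium, which held fetal bovine serum, leukemia inhibitory factor, the GSK3 inhibitor CHIR99021, the MEK inhibitor PD0325901 and the reducing agent 2-mercaptoethanol. Pml encodes the protein that organizes PML nuclear bodies, and the comparison asks how transcript levels differ between cells with and without it. The labels do not say whether replicates were separate cultures, and the knockout columns share the name KO34, so p-values cover the spread among 3 libraries a group, whose source may be technical and whose knockout may be 1 clone.

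As background, NRF2 pairs with a small MAF protein and binds antioxidant response elements near genes for glutathione, thioredoxin, NADPH and haem metabolism. KEAP1 is the adaptor that hands NRF2 to a CUL3 ubiquitin ligase for degradation, and oxidants or electrophiles that modify KEAP1 cysteines let NRF2 accumulate. The pathway is therefore set largely at the level of NRF2 protein, which these data do not measure. GSK3, which the medium inhibits in both groups, is a kinase of another route of NRF2 degradation, through the ligase adaptor BTRC. In human cells NRF2 protein has been located in PML nuclear bodies.

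The libraries held 5845653 to 11046725 counted reads. The level of a gene is its CPM, the count of its reads scaled to 1000000 reads per library. Pml stood at 191 ± 4.09 CPM (SD, n = 3) in wild-type and 76.3 ± 0.912 CPM (n = 3) in knockout libraries, and all knockout libraries were lower. All 10 embryonic stem cell markers examined were present, with mean wild-type and knockout levels of 1447 and 1457 CPM for Pou5f1 and of 1002 and 1045 CPM for Nanog. Of these markers 3 rose, Klf4, Tfcp2l1 and Tdgf1, by log2 fold changes of 0.22, 0.18 and 0.35 (limma adjusted p = 8.27e-05, 8.09e-06 and 1.34e-05), and 7 did not pass. Of 12 fibroblast markers 7 stayed under 1 CPM in every library and 4, Fap, S100a4, Dcn and Postn, were at 0 in all. The summed level of the fibroblast list was 1237 to 1309 CPM in wild type and 1341 to 1372 CPM in knockout, most of it Fn1 and Vim, and of its 4 tested genes 2 rose and 2 fell. Of 10 primitive endoderm markers 5 were tested and 0 passed limma, edgeR or DESeq2, with 1 at an unadjusted p under 0.05 (sums of 310.1 to 316 and 313 to 326 CPM). All 3 tested neural precursor markers of 6 (Nes, Sox1 and Tubb3) fell, and the list's sum went from 134 to 146 CPM in wild type to 88.1 to 97.2 CPM in knockout. The part of other cells or of a shift in these markers in the results below was not tested. In bulk RNA, fewer cells that transcribe a gene and less RNA per cell cannot be told apart.

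Glutathione reductase (Gsr), the quinone reductase Nqo1, sulfiredoxin (Srxn1) and the glutamate-cysteine ligase modifier subunit (Gclm) were lower in the knockout, which kept between 75.3% and 84.9% of their wild-type levels. The transcripts of NRF2 itself and of Keap1 did not pass the test, with log2 fold changes of 0.04 and -0.03. Of the 10 genes 4 fell and 6 did not pass limma at an adjusted p under 0.05. The count that rose was 0 by limma, also at an unadjusted p under 0.05, and 0 by edgeR and DESeq2. Over all tested genes 7.49% were called lower and 6.54% higher. In 6 of the 10 genes all knockout libraries lay below all wild-type libraries, a pattern seen in 15% of tested genes, and in the other 4 the groups overlapped. The log2 fold change was below 0 for 9 of 10 members, against 48.6% of tested genes, with a median of -0.12 beside 0.00463 for all tested genes. The 10 genes were chosen with earlier results of these data known, so these contrasts are no independent evidence. Over all tested genes, 3.87% had a log2 fold change as low as that of Gsr or lower. Fold changes are knockout over wild type on the log2(CPM + 1) scale.

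**Figure D1:**
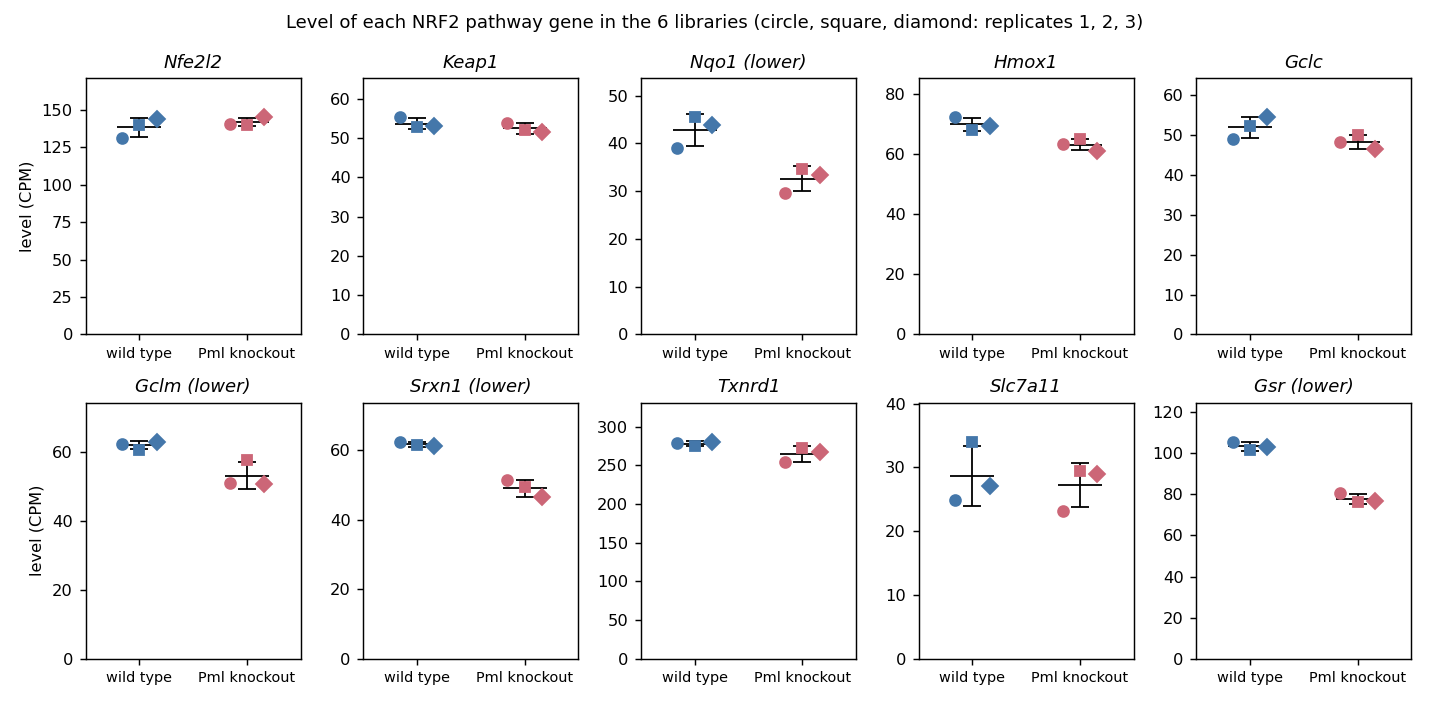
Level in CPM (linear axis from 0) of each of the 10 genes in the 3 wild-type (blue) and 3 Pml knockout (red) libraries; bars show the mean and SD over n = 3, and marker shapes the replicate number. Gsr, Nqo1, Srxn1 and Gclm, marked lower, had every knockout library below every wild-type library, whereas Nfe2l2 and Keap1 overlapped.

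Nfe2l2 and Keap1 are the regulators of the pathway. Nfe2l2 (ENSMUSG00000015839.6, mm10 chromosome 2, 75675513 to 75704641, minus strand) had 131.5, 139.8 and 144 CPM in wild-type replicates 1, 2 and 3 and 140.4, 140.1 and 145 CPM in knockout replicates 1, 2 and 3. The knockout values lay within or just above the wild-type range. The means were 138 ± 6.38 and 142 ± 2.71 CPM (n = 3 each), a log2 fold change of 0.04 (SE 0.0416, 95% interval -0.05 to 0.12, limma adjusted p = 0.640). Without wild-type replicate 1, the lowest wild-type library, the log2 fold change was -0.00108. Keap1 (ENSMUSG00000003308.15, chromosome 9, 21229730 to 21239361, minus strand) had 55.2, 52.7 and 53.1 CPM in wild type and 53.9, 52.0 and 51.4 CPM in knockout, and the groups overlapped. Its log2 fold change was -0.03 (SE 0.0563, 95% interval -0.15 to 0.08, limma adjusted p = 0.761). GENCODE places the antisense gene Gm16754 over Keap1, and strand use in the counting is not given in the sources used here, so reads of the pair cannot be told apart.

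Glutathione is made from cysteine, glutamate and glycine, and 4 of the genes act on that route. Slc7a11 encodes the cystine-glutamate exchanger xCT that brings in cystine (ENSMUSG00000027737.10, chromosome 3, 49892526 to 50443614, minus strand). It had 24.9, 34.0 and 27.1 CPM in wild type and 23.2, 29.4 and 29.0 CPM in knockout. It varied most among replicates, with coefficients of variation of 16.6% and 12.8%, and replicate 1 was the lowest in both groups. Its log2 fold change of -0.07 (SE 0.0968, 95% interval -0.27 to 0.13, limma adjusted p = 0.706) did not pass the test. Its sign turned to 0.06 without wild-type replicate 2 and to 0.04 without knockout replicate 1.

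Glutamate-cysteine ligase, which makes the first bond of glutathione, consists of a catalytic subunit (Gclc) and a modifier subunit (Gclm). Gclc (ENSMUSG00000032350.9, chromosome 9, 77754535 to 77794485, plus strand) had 49.1, 52.3 and 54.4 CPM in wild type and 48.3, 50.1 and 46.5 CPM in knockout. The groups overlapped through knockout replicate 2 and wild-type replicate 1, and the log2 fold change of -0.10 (SE 0.06, 95% interval -0.23 to 0.02, limma adjusted p = 0.279) did not pass. Gclm (ENSMUSG00000028124.15, chromosome 3, 122245557 to 122270732, plus strand) had 62.2, 60.5 and 62.8 CPM in wild type and 50.9, 57.5 and 50.5 CPM in knockout. All knockout libraries were lower, with replicate 2 closest to wild type. Gclm fell by 0.22 on the log2 scale (SE 0.0583, limma adjusted p = 0.00923), to 84.9% of wild type (exact interval at 95%, from 1161 and 1902 pooled reads, 78.8% to 91.3%, counting error only). This call did not hold without knockout replicate 3 (adjusted p = 0.0637) or with DESeq2 (0.0550; 3.72% of genes lower by DESeq2), and over all alternatives the adjusted p lay between 0.000785 and 0.0637. Within a library the log2 ratio of Gclm over Gclc averaged 0.25 ± 0.0767 in wild type and 0.13 ± 0.0612 in knockout, with no overlap. The exact two-sided permutation p of that difference was 0.1, the smallest that 3 against 3 libraries can give, so this test could not pass the threshold. GENCODE places Gm17494 on the opposite strand and the pseudogene Gm6061 on the same strand over Gclm, and reads of these could not be separated.

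Gsr encodes glutathione reductase, which uses NADPH to return oxidized glutathione to its reduced form (ENSMUSG00000031584.16, chromosome 8, 33652523 to 33698163, plus strand). It had 105, 101 and 103 CPM in wild type and 80.6, 76.3 and 76.5 CPM in knockout. The groups were far apart relative to their spread, at 103 ± 2.02 and 77.8 ± 2.41 CPM. Gsr fell by 0.40 on the log2 scale (SE 0.0464, limma adjusted p = 1.82e-07) to 75.3% of wild type (71.0% to 79.9%, counting error only). Nqo1 had a log2 fold change close to that of Gsr, and which of these genes was the lower depended on the library left out.

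**Figure D2:**
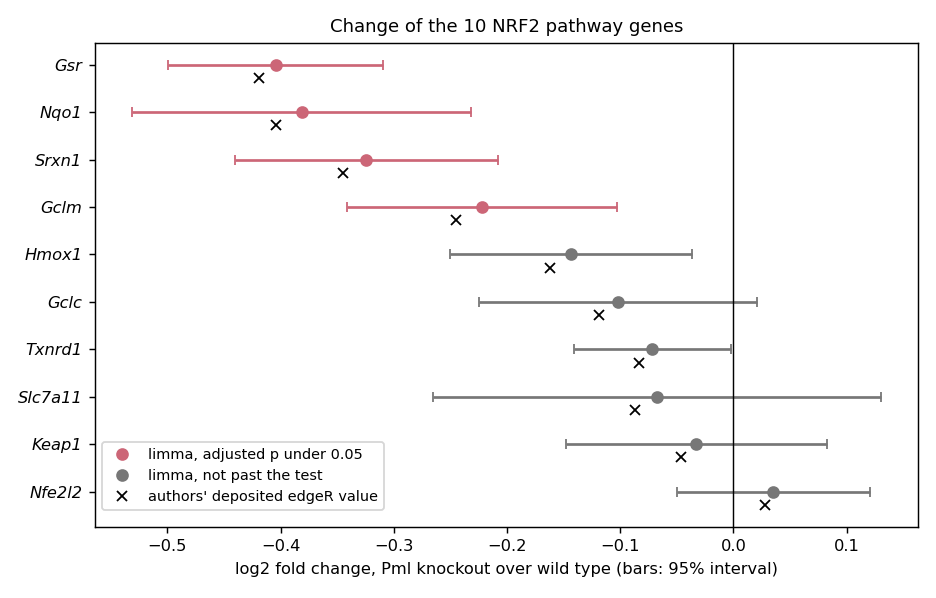
Log2 fold change of the 10 genes, Pml knockout over wild type, from limma on log2(CPM + 1) with 95% intervals (circles; red where the adjusted p was under 0.05), beside the value in the authors' deposited table (crosses). The intervals of Gsr, Nqo1, Srxn1 and Gclm lie below -0.10, and those of Nfe2l2, Keap1, Gclc and Slc7a11 include 0.

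In the thioredoxin branch Srxn1 fell and Txnrd1 did not pass the test. Txnrd1 encodes cytosolic thioredoxin reductase, a selenoprotein that returns thioredoxin to its reduced form (ENSMUSG00000020250.10, chromosome 10, 82833951 to 82897712, plus strand). It had 279, 275 and 280.3 CPM in wild type and 254, 273 and 267 CPM in knockout. The knockout libraries were all lower, replicate 2 by little, and the log2 fold change of -0.07 (SE 0.0339, 95% interval -0.14 to -0.00232, limma adjusted p = 0.166) did not pass the test over all genes. Srxn1 encodes sulfiredoxin, which repairs over-oxidized peroxiredoxins (ENSMUSG00000032802.8, chromosome 2, 152105516 to 152111376, plus strand). It had 62.5, 61.5 and 61.2 CPM in wild type and 51.4, 49.4 and 46.6 CPM in knockout. Wild-type replicates differed little (SD 0.643 CPM), and every knockout library was lower. Srxn1 fell by 0.32 on the log2 scale (SE 0.0566, limma adjusted p = 0.000150) to 79.3% of wild type (73.6% to 85.5%, counting error only). For the pair of NADPH-dependent reductases, the log2 ratio of Gsr over Txnrd1 within a library went from -1.43 ± 0.0229 to -1.77 ± 0.0975, without overlap (exact two-sided permutation p = 0.1, again the smallest possible and so not past the threshold, 2 such pairs examined).

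Nqo1 and Hmox1 are classic NRF2 targets in detoxification and haem breakdown. Nqo1 reduces quinones by transfer of an electron pair (ENSMUSG00000003849.8, chromosome 8, 107388225 to 107403206, minus strand). Its wild-type libraries held 39.0, 45.4 and 43.8 CPM and its knockout libraries 29.7, 34.7 and 33.4 CPM. Replicate 1 was the lowest library in both groups, and all knockout libraries lay below wild-type replicate 1. Nqo1 fell by 0.38 on the log2 scale (SE 0.0731, limma adjusted p = 0.000477) to 76.2% of wild type (69.4% to 83.5%, counting error only). The locus deposited for Nqo1, 107256163 to 107558595, also spans Nfat5, Nob1 and Wwp2, but these have rows and values of their own in the table. Nfat5, the neighbour on the other strand, rose from 30.3 ± 1.93 to 39.3 ± 1.70 CPM (log2 fold change 0.37, limma adjusted p = 0.000476), the opposite direction to Nqo1. Hmox1 encodes the inducible haem oxygenase (ENSMUSG00000005413.8, chromosome 8, 75093621 to 75100589, plus strand). It had 72.1, 68.1 and 69.2 CPM in wild type and 63.4, 64.8 and 61.1 CPM in knockout, with all knockout libraries lower. Its log2 fold change of -0.14 (SE 0.0521, limma adjusted p = 0.0646) was outside the threshold. The call was made by edgeR on recovered reads (adjusted p = 0.0492; 7.92% of genes lower by edgeR) and without knockout replicate 2 (0.0447), and over all alternatives the adjusted p ran from 0.0378 to 0.261.

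Gsr, Nqo1 and Hmox1 all lie on chromosome 8, whose genes were more often lower in the knockout. Of 640 tested genes placed on it, 90 were called lower (14.06%), against 812 of 11327 genes on the other chromosomes (7.17%), and their median log2 fold change was -0.05 beside 0.00811 elsewhere. Gsr and Nqo1 were near the low end of the chromosome, where 3.75% and 4.53% of genes had as low a fold change or lower. For Hmox1 that share was 26.2%. The 6 tested genes nearest Gsr, 3 on each side, all had log2 fold changes below 0, from -0.31 to -0.07, and 1 of them, Tex15, was called. Those nearest Hmox1 ran from -0.32 to -0.03 with 2 called (Sin3b and Tom1), and those nearest Nqo1 from -0.18 to 0.37 with 2 called (Cyb5b, lower, and Nfat5, higher). The part of the chromosome in the results for these genes was not tested. The 7 members on other chromosomes had a median of -0.07, and 2 of them, Srxn1 and Gclm, fell.

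**Figure D3:**
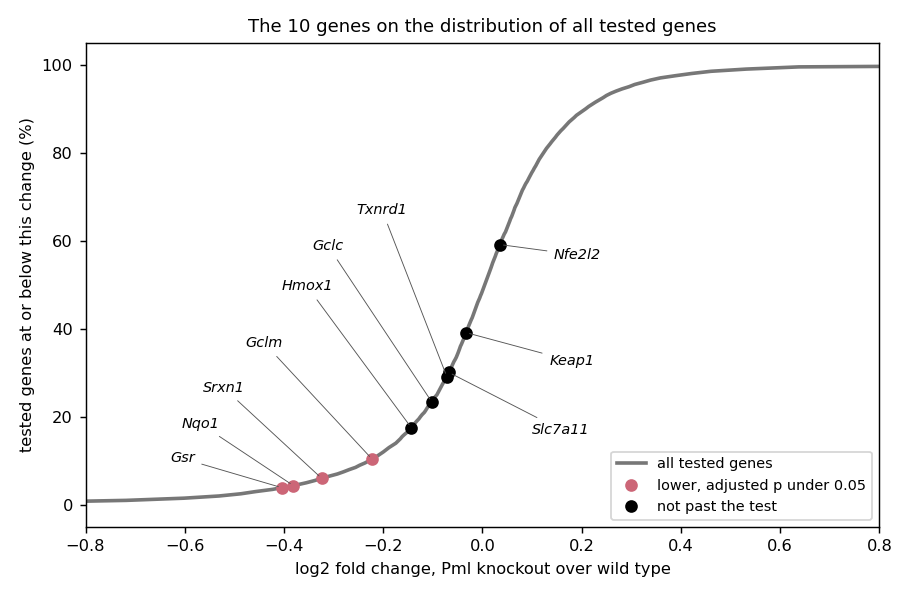
Share of the 12435 tested genes (y axis, percent) at or below each log2 fold change (x axis, knockout over wild type, shown from -0.8 to 0.8), with the 10 genes marked on the curve, red where called lower. Gsr, Nqo1, Srxn1 and Gclm sit at 3.87%, 4.40%, 6.02% and 10.4% of the distribution, and Nfe2l2 at 59.1%.

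The authors' deposited table gives a like picture from edgeR. In that table Gsr has a log2 fold change of -0.42 with an FDR of 6.10e-16, Srxn1 -0.34 with 2.90e-07, Nqo1 -0.40 with 3.31e-05 and Gclm -0.25 with 0.00255. In the same deposited table Hmox1 has an FDR of 0.0835 and Txnrd1 of 0.188, and Nfe2l2, Keap1 and Slc7a11 have an FDR of 1. Of 24421 genes in the authors' deposited table, 3.79% were lower at an FDR under 0.05. That base includes 6417 genes at 0 in all libraries. The share is therefore not comparable with those over the 12435 tested genes. These values come from the same 6 libraries and are no separate evidence.

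The sequences before the start sites of the genes are shown because antioxidant response elements are the sites through which NRF2 acts. RefSeq windows (GRCm38.p6, the assembly of mm10) of 250 bases before and 50 bases after a start site were found for 7 of the 10 genes, in 9 windows. Both strands were searched for TGACNNNGC, the core letters of the element, and for TGAGTCA, the core of AP-1 and related sites, and a site can match both patterns on opposite strands, which none of the matches shown did. All RefSeq windows held TGACNNNGC in 12.4% and TGAGTCA in 5.2% of 32851 cases. The matches before a start site are in capitals below, 5′ to 3′ on the strand of the gene.
Srxn1, chr2:152105404-152105503, plus strand: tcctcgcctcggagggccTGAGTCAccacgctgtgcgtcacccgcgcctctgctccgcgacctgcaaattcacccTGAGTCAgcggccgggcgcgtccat
Gclm, chr3:122245397-122245456, plus strand: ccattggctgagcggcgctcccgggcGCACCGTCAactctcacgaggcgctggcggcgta
Txnrd1 (second of 3 start sites), chr10:82859086-82859145, plus strand: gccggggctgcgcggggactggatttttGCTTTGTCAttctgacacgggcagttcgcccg
Nfe2l2, chr2:75704854-75704913, minus strand: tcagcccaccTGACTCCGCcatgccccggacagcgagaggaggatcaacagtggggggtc
Srxn1 held TGAGTCA at 2 places, starting 102 and 45 bases before its start site, and TGACNNNGC on the opposite strand after it. Gclm and Txnrd1 held TGACNNNGC on the opposite strand, 134 and 92 bases before the start, and Nfe2l2 on its own strand 240 bases before. Of the called genes with a window, Srxn1 and Gclm thus had a match and Nqo1 had none in these letters. Among genes that did not pass, Nfe2l2 and Txnrd1 had a match, and Keap1 and Slc7a11 had none. A match describes letters in a window, and among these 7 genes its presence did not separate those that fell from those that did not pass. Hmox1, Gclc and Gsr had no window, and sites more than 250 bases before a start site were not searched. With so few genes, this comparison cannot decide whether elements go with the falls.

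Levels of the 10 genes were ordered per kilobase of exon (RPKM, with all annotated exons of a gene joined), in wild-type libraries. Hmox1 was highest at 39.9 ± 1.20 RPKM (n = 3), followed by Txnrd1 at 39.2 ± 0.417, and their ranges overlapped. Gsr at 37.5 ± 0.734 and Nfe2l2 at 36.5 ± 1.68 RPKM came next and also overlapped. Below them, with no overlap between neighbours in the order, came Nqo1 at 27.5 ± 2.14, Srxn1 at 21.9 ± 0.228, Gclc at 13.8 ± 0.717, Keap1 at 11.4 ± 0.288 and Gclm at 9.83 ± 0.189 RPKM. The exchanger Slc7a11 was lowest at 2.06 ± 0.342 RPKM. In the knockout Gsr stood at 28.2 ± 0.873 RPKM, apart from Nfe2l2 at 37.4 ± 0.713. With the longest transcript as the length, Txnrd1 was highest at 76.8 ± 0.816 RPKM and Nfe2l2 second at 55.9 ± 2.58, so the order of the 4 highest genes depends on the transcript form. On that length the ranges of Gclc (14.33 to 15.90 RPKM) and Keap1 (14.58 to 15.28 RPKM) also overlapped, and Keap1 stood above Gclc in the knockout. Slc7a11 was lowest with either length. Both lengths come from GENCODE M21, and the annotation used for the counts is not given. The locus deposited for Slc7a11, 50364935 to 50443613, is shorter than its GENCODE span. Its RPKM, and the order in general, may therefore differ with the lengths that were counted.

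Around the 10 genes, 124 further genes of the pathway and of the overlapping ATF4 response were grouped by role, and 109 passed the filter. Of these 17 fell, 5 rose and 87 did not pass limma. Thus 15.6% were lower beside 7.49% of all tested genes, and 4.59% higher beside 6.54%. The lists were chosen with earlier results of these data known, so this contrast is no independent evidence. Without Gstp2, a near-identical copy of Gstp1, 14.8% were lower. Of the 109 genes, 27 (24.8%) had all knockout libraries below wild type, beside 15% of all tested genes. These included 16 of the 17 genes that fell, Ddit4 being the exception, a pattern that the call itself favours. The median log2 fold change of the 109 was -0.02. DESeq2 called 14 of them, 11 lower and 3 higher. Its calls over the whole set of 12435 genes were 463 lower (3.72%) and 333 higher. Without wild-type replicate 3, limma called 16 lower and 1 higher among 111 wider genes. That same fit called 658 lower and 582 higher out of 12590 genes. Of the tested wider genes 2 lay on chromosome 8, Prdx2 and Slc7a5, and neither was called by limma; edgeR called Prdx2 lower (adjusted p = 0.0454).

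Several detoxification enzymes fell. Of 19 listed genes 11 were tested, 4 fell and 7 did not pass. Beside this, limma called 7.49% of all tested genes lower, and the list was chosen with earlier results of these data known. Cbr3, a carbonyl reductase, had 14.8, 15.0 and 11.8 CPM in wild type and 7.12, 8.38 and 8.74 CPM in knockout. It fell by 0.71 on the log2 scale (SE 0.121, limma adjusted p = 0.000116). Ephx1, microsomal epoxide hydrolase, went from 26.8, 25.96 and 24.4 CPM to 15.3, 17.8 and 18.1 CPM, a fall of 0.57 (SE 0.0890, limma adjusted p = 3.43e-05). Ptgr1, which reduces reactive alkenals and prostaglandins, went from 37.4, 39.7 and 42.6 CPM to 28.5, 27.7 and 26.8 CPM, a fall of 0.51 (SE 0.0713, limma adjusted p = 5.83e-06). In these 3 genes the knockout libraries stayed well below wild type. Ugdh, which makes UDP-glucuronic acid, fell by 0.20 (limma adjusted p = 0.0227), a call lost without wild-type replicate 2 or 3, without knockout replicate 1 and with DESeq2.

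Of 9 genes listed for NADPH supply 4 fell and the other 5 did not pass, with a median log2 fold change of -0.11. Of all tested genes 7.49% were lower. The list also holds Tkt and Taldo1 of the pentose phosphate route, which make no NADPH themselves. Nnt, the mitochondrial transhydrogenase, went from 34.0, 31.7 and 34.4 CPM to 24.3, 26.3 and 21.9 CPM, a fall of 0.45 on the log2 scale (SE 0.0792, limma adjusted p = 0.000152). Me1, the cytosolic malic enzyme, went from 80.02, 81.0 and 79.99 CPM to 64.2, 66.2 and 64.9 CPM, a fall of 0.30 (SE 0.0491, limma adjusted p = 6.59e-05). Idh1, cytosolic isocitrate dehydrogenase, fell by 0.26 and the transketolase Tkt of the pentose phosphate route by 0.11. For each of these enzymes the wild-type and knockout libraries did not overlap. G6pdx, the first enzyme of that route, had 81.1 ± 1.09 and 79.5 ± 2.67 CPM in the groups and did not pass limma (adjusted p = 0.753).

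Of 34 genes of glutathione synthesis and use, 29 were tested, 4 fell, 2 rose and 23 did not pass. Limma called 7.49% of all tested genes lower and 6.54% higher. Gstp1 and Gstp2, glutathione S-transferases of the pi class, fell by 0.31 and 0.32 (limma adjusted p = 2.26e-06 and 8.66e-07). They are near-identical copies with nearly the same level (148 and 149 CPM in wild type), so the split of reads between them is uncertain. Gstm1, a mu class transferase, fell by 0.24 on the log2 scale (limma adjusted p = 0.00494), and Gpx2, a glutathione peroxidase, went from 3.65 ± 1.17 to 1.82 ± 0.899 CPM, a fall of 0.75 (SE 0.216) and the largest called among the wider genes. The Gpx2 call (limma adjusted p = 0.0176) was lost without wild-type replicate 1, without knockout replicate 2, with no filter and with DESeq2. Chac1, which degrades glutathione, and Abcc1, which exports its conjugates, rose by log2 fold changes of 0.34 and 0.16 (limma adjusted p = 0.0224 and 0.0281). In the authors' deposited edgeR values their FDR was 0.0742 and 0.0519, outside the threshold of 0.05. Chac1 lost its call without wild-type replicate 3 or knockout replicate 2 and with no filter, Abcc1 without any library but knockout replicate 1, and both with DESeq2. The mean of Slc3a2, the partner chain of the exchanger Slc7a11, was 224 ± 3.29 CPM in wild-type and 222 ± 0.329 CPM in knockout libraries (limma adjusted p = 0.882).

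**Figure D4:**
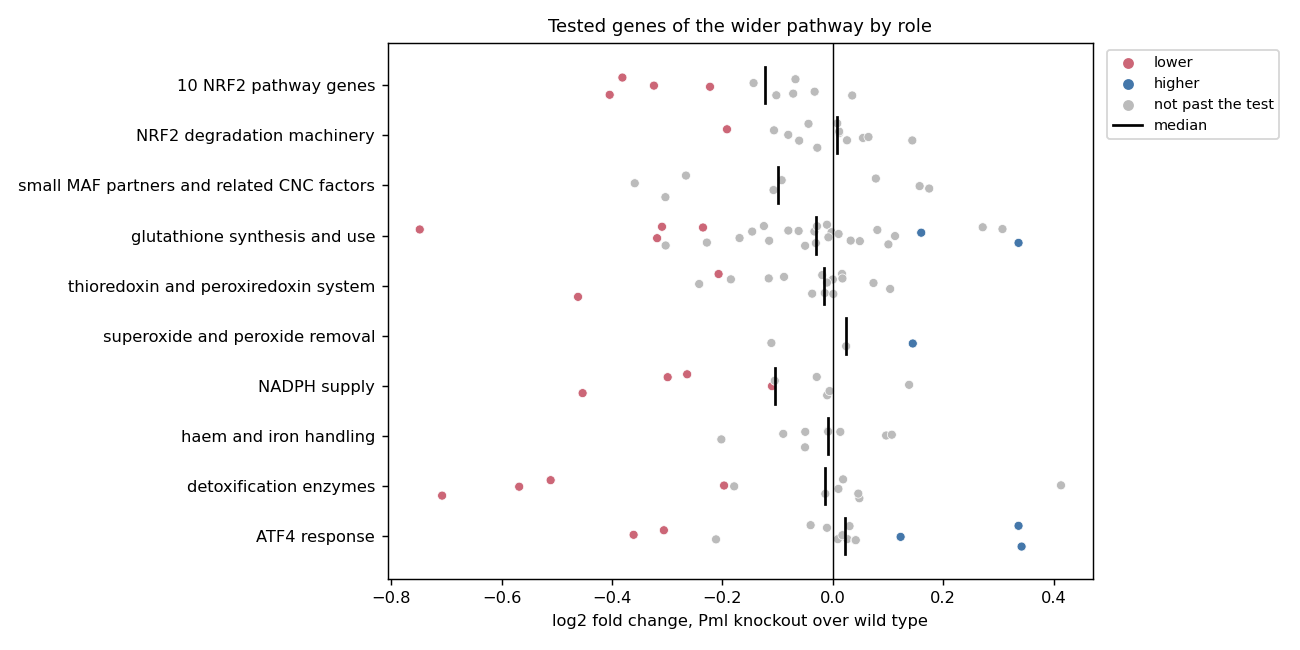
Log2 fold change (x axis, knockout over wild type) of the 10 genes and of every tested gene in 9 wider lists by role; each point is a gene, red where lower, blue where higher and grey where not past the test, points are spread vertically for legibility, and the black bar is the median. Falls were 4 of 11 detoxification genes, 4 of 9 genes of the NADPH list and 4 of 10 in the NRF2 set. They were 4 of 29 glutathione, 2 of 16 thioredoxin, 2 of 14 ATF4 and 1 of 13 degradation machinery genes. Among 9 haem and iron, 8 small MAF and 3 superoxide genes 0 fell. Rises were 2 in the glutathione, 1 in the superoxide and 3 in the ATF4 list. Of all tested genes 7.49% were lower and 6.54% higher.

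In the thioredoxin and peroxiredoxin system 2 of 16 genes fell and 14 did not pass (7.49% of all tested genes were lower and 6.54% higher). The 2 genes that fell were Msra, a methionine sulfoxide reductase, by 0.46, and Prdx4, a peroxiredoxin of the secretory pathway, by 0.21 on the log2 scale (limma adjusted p = 0.0157 and 0.0374). The Msra call was lost without wild-type replicate 1 or 2 and without knockout replicate 3, that of Prdx4 without any library but knockout replicate 2, and both with no filter and with DESeq2. Of 3 tested genes that remove superoxide or peroxide, Sod2, the mitochondrial superoxide dismutase, rose from 197 ± 5.09 to 217 ± 7.13 CPM (log2 fold change 0.14, limma adjusted p = 0.00701), although not without wild-type replicate 3. Haem and iron genes had 0 calls among 9 tested by limma, edgeR or DESeq2, and 2 at an unadjusted p under 0.05. The ferritin light chain Ftl1 and the transferrin receptor Tfrc had log2 fold changes of -0.05 and 0.11, and both were called without knockout replicate 2.

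Transcripts of proteins that act on NRF2 were also examined. Of 13 genes of its degradation machinery 1 fell, which is near the 7.49% lower among all tested genes. It was Skp1a, a core subunit of SCF ubiquitin ligases, which fell by 0.19 on the log2 scale (limma adjusted p = 5.29e-05). Cul3, the scaffold of the ligase that KEAP1 serves, stood at 141 ± 3.65 and 147 ± 10.5 CPM, and Sqstm1, the autophagy receptor that can sequester KEAP1, at 211 ± 12.8 and 196 ± 1.597 CPM; neither passed (limma adjusted p = 0.468 and 0.0697). Sqstm1 was called by edgeR (adjusted p = 0.0381) and without wild-type replicate 3 (0.0122), and over all alternatives its adjusted p ran from 0.0122 to 0.368. Of 8 small MAF and related factors 0 passed limma, edgeR or DESeq2, and 2 had an unadjusted p under 0.05. Among them Nfe2l1, a relative of NRF2, had a log2 fold change of 0.08, and Bach1, a repressor that competes for its elements, of -0.09. The ATF4 response, which also controls Slc7a11, had 3 of 14 genes higher and 2 lower, beside 6.54% and 7.49% of all tested genes. Cth, which makes cysteine, rose from 112 ± 4.66 to 142 ± 13.6 CPM (log2 fold change 0.34, limma adjusted p = 1.81e-05), whereas Ddit4 and Atf5 fell by 0.36 and 0.31 (limma adjusted p = 0.00225 and 0.00688). Both falls were lost with DESeq2, and that of Atf5 also without wild-type replicate 1.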

How the data were processed

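TruSeq libraries were made from polyadenylated RNA, per the labels' protocols. The authors used cutadapt, TopHat, the mm10 build and edgeR, per the submitters' processing notes; of versions, read counter and annotation nothing is given in the sources used here. The deposited table holds CPM per library and, per the file headers, the authors' log2 fold change, p-value and FDR. Of 25833 rows, 1097 had no values and 315 repeated a gene. Low CPM values were whole multiples of 1 read, and 100% of values came out whole within 0.01 of a read. Every pair of libraries differed by more than sampling noise (chi-square per degree of freedom 1.33 or more). The exact intervals on the percent of wild type pool the reads of the 3 libraries of a group, so they cover counting error only. The limma intervals use the spread among libraries. No source names molecular identifiers, so repeated reads of 1 molecule could not be told apart.

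Because the values are CPM, limma 3.58.1 (intensity trend, no covariate) was run on log2(CPM + 1) of the 6 libraries after edgeR's filterByExpr on recovered reads, with Benjamini-Hochberg adjustment over 12435 genes. It called 1745 genes (813 higher, 932 lower). Alternatives were edgeR 4.0.16 on recovered reads (1820 calls), DESeq2 1.42.0, other pseudocounts, no filter, TMM scaling, a replicate block and leaving out each library. The pipeline was tested on simulated data. Positions and exon lengths come from GENCODE M21, promoters from RefSeq. Members and lists were chosen with earlier results of these data known. Named genes were all members, up to 4 called genes with the largest change per list or else the 2 with the highest CPM, and Pml; others (such as Gstm1, Abcc1, Slc3a2, G6pdx, Cul3, Sqstm1 and neighbours) were chosen after their values were seen.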

Additional observations from a re-analysis of the deposited data

How the results depend on the processing

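Gsr, Srxn1 and Nqo1 were lower under all 13 alternatives. The count of members called was 3 to 5 of 10 throughout, and 3 to 5 when a library was left out. Of the results for the 10 genes under alternatives, 122 kept their direction and side of the threshold, 3 gained a call (Hmox1), 2 lost it (Gclm) and 3 changed sign. The sign changes came from leaving out a library: Nfe2l2 then ran from -0.00108 (wild-type replicate 1 left out) to 0.0643, and Slc7a11 from -0.159 to 0.0579 (above 0 with wild-type replicate 2 or knockout replicate 1 left out). Neither gene passed the test in any setting run. DESeq2 called 14 wider pathway genes in place of 22, and 796 genes in all in place of 1745; the cause was not tested. Leaving out a library gave 17 to 27 wider genes, the lowest without wild-type replicate 1 or 3, and 1160 to 1852 genes in all, the lowest without wild-type replicate 2. With the replicate number as a block, 5 members (Hmox1 added), 31 wider genes (22 lower, 9 higher, with Ftl1, Tfrc, Sqstm1 and Nfe2l1 among them) and 2337 genes in all were called. Deviations of same-numbered libraries correlated at 0.0972, 0.107 and 0.0395, and each library correlated best with its own number, a hint from the data that the labels do not explain, so the samples were not treated as pairs. In the smallest library 3 reads equal 0.513 CPM, which limits only genes far below these members.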
